A study of Homo sapiens with 9 samples.

Results

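Expression of 35 genes of cholesterol synthesis, fatty acid synthesis and sterol export was examined in Daudi, a Burkitt lymphoma line of B cells. The genes were taken from a list given by symbol, and each was read from the probe set that carried that symbol alone and had the highest mean over the 9 arrays. Of the 35 genes, 31 had such a probe set among 19775 genes of the whole series, and 30 of these lay at or above the signal level used for testing, among 11250 genes tested. CYP51A1 and FADS1 shared their probe sets with another gene symbol, and these and FDFT1 and NR1H2 were not analysed here. MVD had a mean signal below that level and was not tested.

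The study compared 3 groups of 3 arrays, all of Daudi cells infected with a short hairpin RNA and selected with puromycin for 48 h. Ctrl-sh carried a control hairpin, Slc7a5-sh a hairpin against SLC7A5, the light chain of a transporter of large neutral amino acids, and C-Myc-sh a hairpin against MYC, the transcription factor that the Burkitt translocation places under immunoglobulin control. All groups grew in medium with 10% fetal bovine serum, which supplies lipoproteins, and 2 mM glutamine. C-Myc-sh was the study's positive control. The titles call the arrays biological replicates and do not say whether cells were infected anew for each, so p-values measure only the spread between these samples, which may be technical.

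Cells make cholesterol from acetyl-CoA through mevalonate, squalene and lanosterol. The transcription factors SREBP-1 and SREBP-2 (genes SREBF1 and SREBF2) lie inactive in the endoplasmic reticulum while sterols are plentiful and are carried to the Golgi by SCAP and released when sterols run low. They then switch on the sterol enzymes and, mainly through SREBP-1, the enzymes of fatty acid synthesis. The liver X receptors (LXR, genes NR1H3 and NR1H2) work the other way: bound by oxysterols, they switch on the exporters ABCA1 and ABCG1, the ubiquitin ligase MYLIP, which removes lipoprotein receptors from the cell surface, and the SREBF1 gene itself.

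The signals are log2 values per probe set, scaled to one level per array, and compare a gene between groups, not genes with each other. They come from whole cultures, so fewer cells of a kind and less RNA per cell cannot be told apart. Array medians lay between 6.05 and 6.26, and correlations between arrays of one group, across genes, were 0.972 to 0.977. Of the targeted genes, MYC had a log2 change of -1.09 in C-Myc-sh and -0.35 in Slc7a5-sh, and SLC7A5 of -0.32 in Slc7a5-sh and -0.41 with C-Myc-sh (limma adjusted p = 4.7e-10, 0.000381, 0.00414 and 0.000186), so that neither target was lowered in only its own group. All 9 measured B-cell markers out of 10 listed were above the level for testing, and all 9 measured monocyte and macrophage markers were below it, as were 5 of 10 epithelial and fibroblast markers. Of the other 5, KRT8, KRT18 and DCN were called in neither knockdown. COL1A1 fell to 61.3% of Ctrl-sh in Slc7a5-sh and 66.5% with C-Myc-sh (limma adjusted p = 0.0346 and 0.0405). ACTA2 had Ctrl-sh signals of 6.63, 4.96 and 3.80. Their mean of 5.13 (SD 1.42) lay below the level for testing, which ACTA2 reached only through its knockdown arrays. It was called higher in both knockdowns, but no fold is given. The part of these 5 markers in the results was not tested.

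In Slc7a5-sh the sterol exporters fell while part of the sterol synthesis pathway rose modestly. ABCG1 went to 25.5% and ABCA1 to 40.1% of their Ctrl-sh signal, and IDI1, MSMO1, SC5D, SQLE and HMGCS1 rose between 1.24-fold and 1.63-fold. Of these genes, only ABCG1 and MSMO1 kept the Slc7a5-sh call under every alternative processing in which they were tested. In C-Myc-sh the exporters were low as well, sterol synthesis genes rose by up to 3.81-fold, and the fatty acid synthesis genes FASN, SCD, ACACA and ACLY fell. The comparisons of the knockdowns with Ctrl-sh share the 3 control arrays, so their values are given side by side and are not independent of each other.

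Of the 30 tested genes, 6 were higher and 7 lower in Slc7a5-sh (limma, Benjamini-Hochberg adjusted p under 0.05 over all 11250 genes), which is 43.3% of them, where 25.3% of all genes were called, 14.3% higher and 11.0% lower. In C-Myc-sh 12 were higher and 11 lower, or 76.7%, where 54.9% of all genes were called, 28.7% higher and 26.2% lower. With the array medians centred, which moved the median change of all genes by -0.13 in that comparison, the higher share of all calls was 40.7% in place of 52.3%. Directly compared, 13 genes were higher and 8 lower in C-Myc-sh than in Slc7a5-sh, or 70.0%, with 49.5% of all genes called, 24.4% higher and 25.1% lower. Centring moved the median there by -0.12 and the higher share of all calls from 49.3% to 36.8%. Without Slc7a5-sh replicate 1, 5 of the 30 genes were lower in this comparison, where 2598 of 11250 genes were. Without probe sets that can bind related transcripts (names ending in _s_at or _x_at) only 19 of the genes could be tested, among 8817 genes. Of the 19, 4 were higher and 4 lower in Slc7a5-sh, where 1110 and 899 of the 8817 were. In C-Myc-sh 7 were higher and 5 lower, where 2501 and 2067 of the 8817 were. When the probe sets of a gene were averaged, 3 of 29 were higher and 7 lower in Slc7a5-sh, where 795 and 786 of 10176 genes were. The share called depended on signal. With the level for testing raised to the 75th percentile of all probe sets (8.71), 25 of the genes were tested, among 7336. Of the 25, 5 were higher and 5 lower in Slc7a5-sh, where 1579 and 1221 of the 7336 were, so the share was near that of all genes. In C-Myc-sh 12 were higher and 8 lower, where 2537 and 2602 of the 7336 were.

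**Figure D1:**
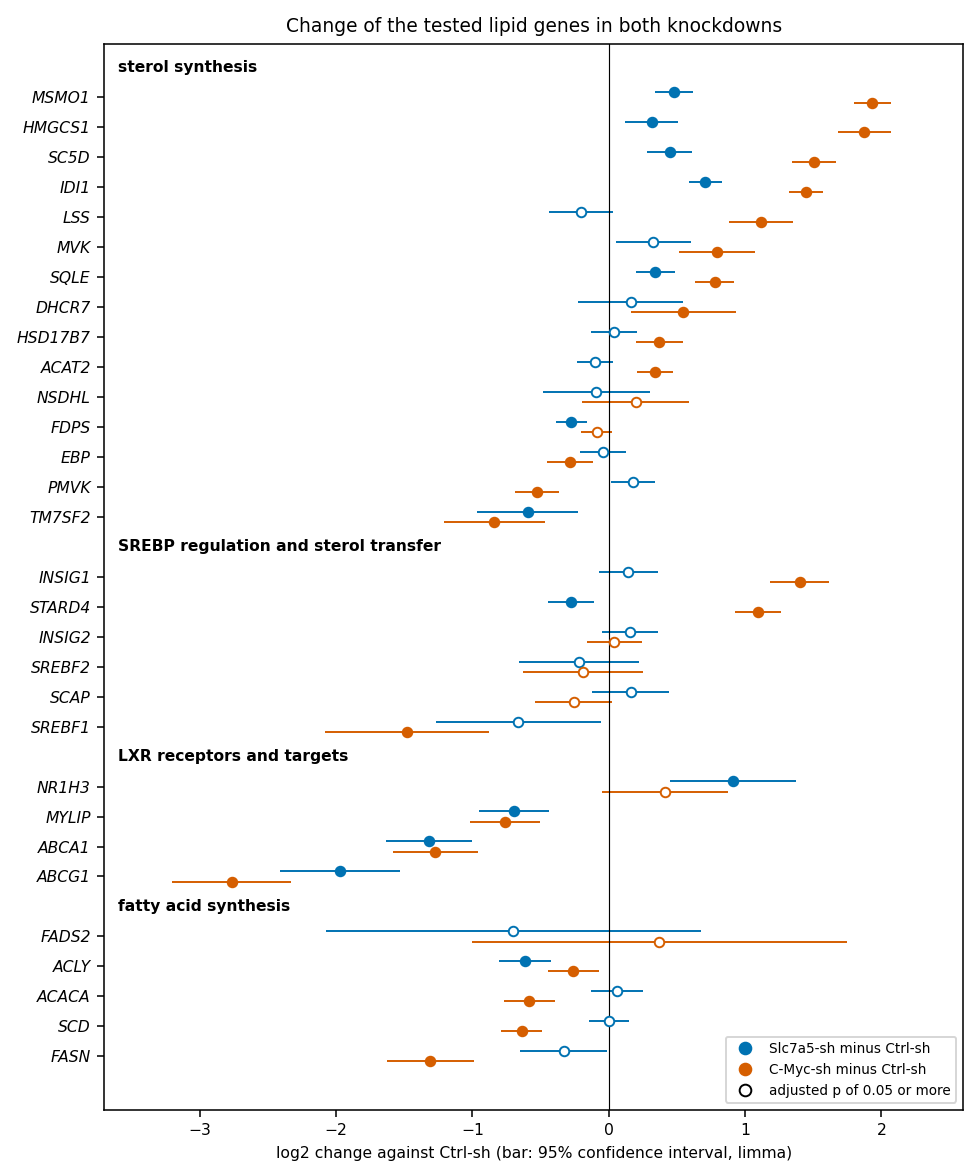
Log2 change against Ctrl-sh (x axis) of the 30 tested genes, ordered by role (y axis), with 95% confidence intervals. Blue stands for Slc7a5-sh and orange for C-Myc-sh, and open circles did not pass an adjusted p of 0.05. ABCG1, ABCA1 and MYLIP lie left of 0 in both, most sterol synthesis genes lie right of 0 in C-Myc-sh, and STARD4 lies on opposite sides.

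The LXR targets were examined first. ABCG1, which exports sterols to lipoprotein particles, had log2 signals of 9.51, 9.40 and 9.59 in Ctrl-sh, of 7.53, 7.24 and 7.81 with Slc7a5-sh and of 6.74, 6.63 and 6.83 with C-Myc-sh. The 3 groups did not overlap, with Ctrl-sh highest and C-Myc-sh lowest. ABCG1 fell to 25.5% of Ctrl-sh in Slc7a5-sh (-1.97 on the log2 scale, SE 0.20, adjusted p = 1.61e-05 in limma). In C-Myc-sh it fell to 14.7% (-2.77 on the log2 scale, SE 0.20, adjusted p = 2.77e-08 in limma), and the knockdowns also differed (a difference of -0.80 on the log2 scale, SE 0.20, adjusted p = 0.00453 in limma). On these arrays the linear signals of 10 genes listed as T-cell and NK-cell markers summed to between 1316 and 1428 in Ctrl-sh, 723 and 1038 in Slc7a5-sh and 459 and 529 in C-Myc-sh. IL7R (mean log2 signal 7.99) and CD247 (7.80) had the highest means of the 10. Of these markers 7 were below the level for testing, CD3D, CD3G and CD8A among them, and CD3E, CD247 and IL7R were above it. CD247, the T-cell receptor zeta chain, fell by 0.78 in Slc7a5-sh and 1.32 with C-Myc-sh (limma adjusted p = 0.0415 and 0.000536). IL7R had a change of -0.70 in Slc7a5-sh (limma adjusted p = 0.117) and fell by 3.42 in C-Myc-sh, and CD3E did not pass in either. Their part in the ABCG1 result was not tested.

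ABCA1, which hands cholesterol and phospholipid to lipid-poor apolipoproteins, had log2 signals of 10.35, 10.42 and 10.52 in Ctrl-sh, of 9.40, 8.82 and 9.11 with Slc7a5-sh and of 8.93, 9.34 and 9.20 with C-Myc-sh. Every Ctrl-sh array lay above every knockdown array, and the knockdown groups overlapped. ABCA1 fell to 40.1% of Ctrl-sh in Slc7a5-sh (-1.32 on the log2 scale, SE 0.15, adjusted p = 2.73e-05 in limma). In C-Myc-sh it fell to 41.4% (-1.27 on the log2 scale, SE 0.15, adjusted p = 3.08e-06 in limma). The difference between the knockdowns was 0.05 (95% confidence interval -0.27 to 0.36).

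MYLIP, the ubiquitin ligase, had log2 signals of 10.27, 10.18 and 10.04 in Ctrl-sh, of 9.40, 9.57 and 9.44 with Slc7a5-sh and of 9.22, 9.63 and 9.36 with C-Myc-sh. Again the controls stood above all 6 knockdown arrays. It fell to 61.8% of Ctrl-sh in Slc7a5-sh (-0.70 on the log2 scale, SE 0.12, adjusted p = 0.000734 in limma). In C-Myc-sh it fell to 58.9% (-0.76 on the log2 scale, SE 0.12, adjusted p = 6.55e-05 in limma). The difference between the knockdowns was -0.07 (95% confidence interval -0.32 to 0.19).

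NR1H3, which encodes LXR alpha, had log2 signals of 7.66, 7.44 and 7.34 in Ctrl-sh, of 8.56, 8.30 and 8.30 with Slc7a5-sh and of 7.79, 8.25 and 7.64 with C-Myc-sh. Its Slc7a5-sh arrays lay above all Ctrl-sh arrays, opposite to the 3 targets. NR1H3 rose 1.88-fold in Slc7a5-sh (0.91 on the log2 scale, SE 0.22, adjusted p = 0.00644 in limma). In C-Myc-sh the change did not pass (0.41 on the log2 scale, SE 0.22, adjusted p = 0.12 in limma; 95% confidence interval -0.05 to 0.87). LXR receptors and targets thus had 3 of 4 tested members lower and 1 higher in Slc7a5-sh, where 11.0% and 14.3% of all genes were. Their median log2 change was -1.01, against 0.03 over all tested genes. In C-Myc-sh the same 3 of 4 were lower, where 26.2% of all genes were, with a median of -1.02 against 0.04. Directly compared, ABCG1 alone of the 4 was called, where 49.5% of all genes were. NR1H3 had a difference of -0.50 (limma adjusted p = 0.071), which passed with quantile normalization (-0.66), with array medians centred (-0.61), in eBayes without a trend and without C-Myc-sh replicate 2 (-0.67).

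Several probe sets read these targets, and those above the level for testing went the same way. ABCA1 had a further probe set with changes of -0.999 in Slc7a5-sh and -1.45 with C-Myc-sh. A further probe set of ABCG1 had changes of -0.70 and -1.81, of which the first did not pass (limma adjusted p = 0.161). MYLIP had 4 others, with changes of -1.56 to -0.70 in Slc7a5-sh and -1.48 to -0.74 in C-Myc-sh, all passing. Averaging in the dim probe sets of ABCA1 below that level gave -0.15 in Slc7a5-sh and -0.61 with C-Myc-sh, which did not pass (limma adjusted p = 0.825 and 0.196).

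**Figure D2:**
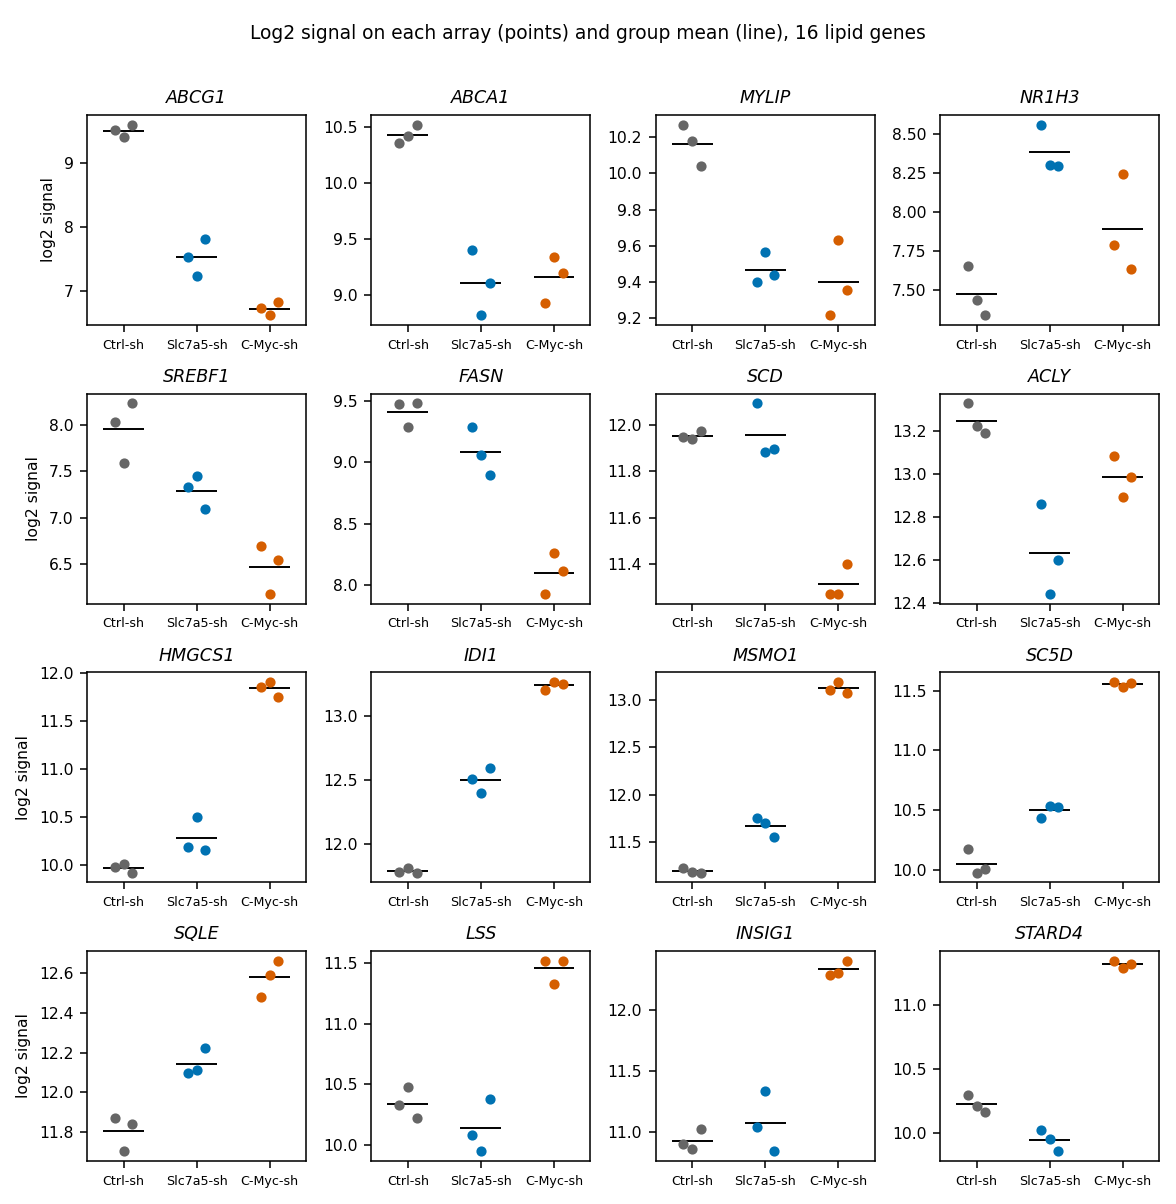
Log2 signal (y axis, its range set for each gene and not starting at 0) on each of the 9 arrays by group (x axis) for 16 genes, points being arrays and lines group means. ABCG1, ABCA1 and MYLIP are lower on all 6 knockdown arrays than on the controls. HMGCS1, IDI1, MSMO1, SC5D and SQLE step up from Ctrl-sh through Slc7a5-sh to C-Myc-sh without overlap.

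Among the sterol synthesis enzymes, 5 of 15 tested were higher and 2 lower in Slc7a5-sh, where 14.3% and 11.0% of all genes were. The median log2 change of the enzymes was 0.16, against 0.03 over all tested genes, and was 0.06 without Slc7a5-sh replicate 2. In C-Myc-sh 10 were higher and 3 lower, where 28.7% and 26.2% of all genes were, with a median of 0.55 against 0.04. The arrays of 10 of the 15 genes in Slc7a5-sh and 14 with C-Myc-sh did not overlap with those of Ctrl-sh, where this held for 39.8% and 62.2% of all genes. Between the knockdowns it held for 12 of the 15 and for 56.5% of all genes. In each comparison the enzymes that were higher lay from the early mevalonate steps to the late sterol steps, and are described in that order.

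HMGCS1, the synthase that commits acetyl-CoA units to the mevalonate pathway, had log2 signals of 9.97, 10.01 and 9.92 in Ctrl-sh, of 10.19, 10.50 and 10.16 with Slc7a5-sh and of 11.86, 11.91 and 11.76 with C-Myc-sh. The 3 groups did not overlap and C-Myc-sh was far above the others. HMGCS1 rose 1.24-fold in Slc7a5-sh (0.31 on the log2 scale, SE 0.09, adjusted p = 0.0207 in limma), a call that was lost without Ctrl-sh replicate 3 (0.29), without Slc7a5-sh replicate 2 (0.21) and in eBayes without a trend. In C-Myc-sh it rose 3.67-fold (1.87 on the log2 scale, SE 0.09, adjusted p = 3.79e-10 in limma), more than in Slc7a5-sh (a difference of 1.56 on the log2 scale, SE 0.09, adjusted p = 4.18e-09 in limma). A further HMGCS1 probe set had changes of 0.69 and 2.10, both passing. ACAT2, the thiolase one step earlier, rose 1.27-fold in C-Myc-sh (0.34 on the log2 scale, SE 0.06, adjusted p = 0.000231 in limma), and in Slc7a5-sh its change of -0.10 did not pass (95% confidence interval -0.23 to 0.03).

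The kinases that phosphorylate mevalonate parted. MVK, the first of them, rose 1.73-fold in C-Myc-sh (0.79 on the log2 scale, SE 0.13, adjusted p = 9.36e-05 in limma), and its change in Slc7a5-sh was 0.33 (limma adjusted p = 0.0797). PMVK, the kinase that follows it, had log2 signals of 11.25, 11.09 and 11.24 in Ctrl-sh, of 11.43, 11.27 and 11.42 with Slc7a5-sh and of 10.61, 10.63 and 10.75 with C-Myc-sh. Its C-Myc-sh arrays lay below all others. PMVK fell to 69.4% of Ctrl-sh in C-Myc-sh (-0.53 on the log2 scale, SE 0.08, adjusted p = 2.91e-05 in limma) and differed between the knockdowns (a difference of -0.71 on the log2 scale, SE 0.08, adjusted p = 2.13e-06 in limma), and its change in Slc7a5-sh of 0.18 did not pass (limma adjusted p = 0.0999). MVD, the decarboxylase after PMVK, had log2 signals of 2.57, 3.23 and 5.90 in Ctrl-sh, of 5.56, 5.87 and 5.14 with Slc7a5-sh and of 5.32, 6.73 and 6.23 with C-Myc-sh. These dim values overlapped, with an SD of 1.76 in Ctrl-sh, and no fold is given.

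IDI1, the isomerase that makes the reactive isoprene unit, had log2 signals of 11.78, 11.81 and 11.77 in Ctrl-sh, of 12.51, 12.39 and 12.59 with Slc7a5-sh and of 13.20, 13.26 and 13.25 with C-Myc-sh. The 3 groups were far apart, and arrays of a group lay close together. IDI1 rose 1.63-fold in Slc7a5-sh (0.71 on the log2 scale, SE 0.06, adjusted p = 1.97e-06 in limma). In C-Myc-sh it rose 2.73-fold (1.45 on the log2 scale, SE 0.06, adjusted p = 5.37e-11 in limma), more than in Slc7a5-sh (a difference of 0.74 on the log2 scale, SE 0.06, adjusted p = 8.18e-08 in limma). Its probe sets disagreed: a second, also open to related transcripts, had changes of 0.52 and 1.37. The 2 dimmer ones, of which the first was open to related transcripts as well, had -0.11 and -0.25 in Slc7a5-sh. In C-Myc-sh these 2 had 0.0020 and 0.44, and none of their changes passed. The call in Slc7a5-sh turned to -0.25 when only the probe set without that limit was used (limma adjusted p = 0.39), and that in C-Myc-sh was then 0.44 and did not pass (limma adjusted p = 0.0711).

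FDPS, which joins isoprene units into farnesyl diphosphate, had log2 signals of 13.13, 13.08 and 13.04 in Ctrl-sh, of 12.77, 12.78 and 12.87 with Slc7a5-sh and of 12.94, 13.02 and 13.03 with C-Myc-sh. It went against its neighbours in the pathway: FDPS fell to 82.6% of Ctrl-sh in Slc7a5-sh (-0.28 on the log2 scale, SE 0.05, adjusted p = 0.00163 in limma). In C-Myc-sh its change of -0.09 did not pass (95% confidence interval -0.20 to 0.03), while with array medians centred it was -0.22 and passed (limma adjusted p = 0.0205). SQLE, the squalene epoxidase, had log2 signals of 11.87, 11.70 and 11.84 in Ctrl-sh, of 12.10, 12.11 and 12.22 with Slc7a5-sh and of 12.48, 12.59 and 12.67 with C-Myc-sh. It rose 1.27-fold in Slc7a5-sh (0.34 on the log2 scale, SE 0.07, adjusted p = 0.00192 in limma) and 1.71-fold in C-Myc-sh (0.78 on the log2 scale, SE 0.07, adjusted p = 1.51e-07 in limma), and the groups did not overlap. LSS, which closes the sterol rings, had log2 signals of 10.33, 10.48 and 10.22 in Ctrl-sh, of 10.09, 9.95 and 10.38 with Slc7a5-sh and of 11.52, 11.33 and 11.52 with C-Myc-sh. Only C-Myc-sh stood apart: LSS rose 2.16-fold there (1.11 on the log2 scale, SE 0.11, adjusted p = 5.72e-07 in limma), and in Slc7a5-sh its change was -0.20 (95% confidence interval -0.44 to 0.03). Without Slc7a5-sh replicate 3 that change passed as a fall of -0.33 (limma adjusted p = 0.031).

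MSMO1, the oxidase that removes methyl groups from the sterol ring, had log2 signals of 11.22, 11.18 and 11.17 in Ctrl-sh, of 11.76, 11.70 and 11.56 with Slc7a5-sh and of 13.10, 13.19 and 13.08 with C-Myc-sh. Of the 30 genes it rose most in C-Myc-sh, 3.81-fold (1.93 on the log2 scale, SE 0.06, adjusted p = 7.65e-12 in limma). In Slc7a5-sh it rose 1.39-fold (0.48 on the log2 scale, SE 0.06, adjusted p = 0.000103 in limma), and the knockdowns differed (a difference of 1.45 on the log2 scale, SE 0.06, adjusted p = 2.23e-10 in limma). SC5D, a desaturase late in the pathway, had log2 signals of 10.17, 9.97 and 10.00 in Ctrl-sh, of 10.44, 10.53 and 10.52 with Slc7a5-sh and of 11.57, 11.53 and 11.56 with C-Myc-sh. The groups again did not overlap, and SC5D rose 1.36-fold in Slc7a5-sh (0.45 on the log2 scale, SE 0.08, adjusted p = 0.000714 in limma) and 2.84-fold in C-Myc-sh (1.51 on the log2 scale, SE 0.08, adjusted p = 5.5e-10 in limma).

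The remaining late enzymes moved less or the other way. TM7SF2, a sterol reductase, had log2 signals of 8.87, 8.93 and 8.83 in Ctrl-sh, of 8.08, 8.18 and 8.58 with Slc7a5-sh and of 7.90, 8.10 and 8.11 with C-Myc-sh. All knockdown arrays lay below Ctrl-sh, and TM7SF2 fell to 66.1% in Slc7a5-sh (-0.60 on the log2 scale, SE 0.17, adjusted p = 0.0196 in limma) and 55.9% in C-Myc-sh (-0.84 on the log2 scale, SE 0.17, adjusted p = 0.000726 in limma). The Slc7a5-sh call was lost without Ctrl-sh replicate 1 (-0.60) or 2 (-0.57) or Slc7a5-sh replicate 1 (-0.50) or 2 (-0.55). EBP, a sterol isomerase, had log2 signals of 11.35, 11.16 and 11.12 in Ctrl-sh, of 11.20, 11.05 and 11.26 with Slc7a5-sh and of 10.95, 10.90 and 10.94 with C-Myc-sh. It fell to 82.2% of Ctrl-sh in C-Myc-sh (-0.28 on the log2 scale, SE 0.08, adjusted p = 0.00687 in limma), and in Slc7a5-sh its change of -0.04 did not pass, but was -0.74 and passed when its probe sets were averaged (limma adjusted p = 0.0122). HSD17B7, a sterol ketone reductase, rose 1.29-fold in C-Myc-sh (0.37 on the log2 scale, SE 0.08, adjusted p = 0.00099 in limma). DHCR7, the reductase of the last step, rose 1.46-fold there (0.55 on the log2 scale, SE 0.18, adjusted p = 0.0182 in limma), a call lost without Ctrl-sh replicate 2 (0.48), Ctrl-sh replicate 3 (0.52) or C-Myc-sh replicate 3 (0.45) and with quantile normalization (0.42). NSDHL, a sterol dehydrogenase, did not pass in either knockdown (log2 changes -0.09 and 0.20). When the probe sets of a gene were averaged, the Slc7a5-sh calls of IDI1 (0.22), SC5D (0.23) and SQLE (0.30) and the C-Myc-sh calls of MVK (0.80) and EBP (-0.39) no longer passed.

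The regulators of SREBP were compared next. SREBF2, the gene of SREBP-2, had log2 signals of 9.24, 8.71 and 8.95 in Ctrl-sh, of 8.25, 9.05 and 8.95 with Slc7a5-sh and of 8.63, 8.75 and 8.97 with C-Myc-sh. Its groups overlapped, and neither the change of -0.22 in Slc7a5-sh (95% confidence interval -0.66 to 0.22) nor that of -0.19 in C-Myc-sh (95% confidence interval -0.63 to 0.25) passed. SREBF1, an LXR target as well as an SREBP gene, had log2 signals of 8.03, 7.59 and 8.23 in Ctrl-sh, of 7.33, 7.44 and 7.09 with Slc7a5-sh and of 6.69, 6.18 and 6.54 with C-Myc-sh. The groups stepped down from Ctrl-sh through Slc7a5-sh to C-Myc-sh without overlap. SREBF1 fell to 35.9% of Ctrl-sh in C-Myc-sh (-1.48 on the log2 scale, SE 0.28, adjusted p = 0.000399 in limma), while the change of -0.66 in Slc7a5-sh did not pass (SE 0.28, limma adjusted p = 0.102). The direct difference of -0.82 passed (limma adjusted p = 0.0259) but not without Slc7a5-sh replicate 1 (-0.80), Slc7a5-sh replicate 2 (-0.74) or C-Myc-sh replicate 2 (-0.67), nor without the filter on low signals or with the 6 arrays alone.

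INSIG1, which holds SCAP back in the endoplasmic reticulum and is itself switched on by SREBP, had log2 signals of 10.90, 10.86 and 11.03 in Ctrl-sh, of 11.04, 11.34 and 10.84 with Slc7a5-sh and of 12.28, 12.31 and 12.40 with C-Myc-sh. C-Myc-sh stood far above the other groups, which overlapped. INSIG1 rose 2.64-fold in C-Myc-sh (1.40 on the log2 scale, SE 0.10, adjusted p = 1.98e-08 in limma), and its change in Slc7a5-sh was 0.14 (95% confidence interval -0.07 to 0.36). The difference between the knockdowns passed (a difference of 1.26 on the log2 scale, SE 0.10, adjusted p = 9.45e-08 in limma), and 2 further probe sets gave changes of 1.34 and 1.17 in C-Myc-sh. INSIG2, its relative, had changes of 0.16 and 0.04, and SCAP of 0.16 and -0.26, none of which passed. The SCAP change in C-Myc-sh passed under 3 alternatives. These were array medians centred (-0.39, limma adjusted p = 0.03), quantile normalization (-0.40, limma adjusted p = 0.0189) and eBayes without a trend (limma adjusted p = 0.0305). SCAP was lower in C-Myc-sh than in Slc7a5-sh (a difference of -0.42 on the log2 scale, SE 0.13, adjusted p = 0.0166 in limma), but not without Slc7a5-sh replicate 1 (-0.39) or C-Myc-sh replicate 2 (-0.36).

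STARD4, which carries cholesterol between membranes and is an SREBP target, had log2 signals of 10.29, 10.21 and 10.17 in Ctrl-sh, of 10.02, 9.96 and 9.86 with Slc7a5-sh and of 11.35, 11.29 and 11.32 with C-Myc-sh. It moved in opposite directions: the Slc7a5-sh arrays lay below and the C-Myc-sh arrays above all Ctrl-sh arrays. STARD4 fell to 82.4% of Ctrl-sh in Slc7a5-sh (-0.28 on the log2 scale, SE 0.08, adjusted p = 0.0165 in limma), a call lost without Ctrl-sh replicate 1 (-0.24) or Slc7a5-sh replicate 3 (-0.23). In C-Myc-sh it rose 2.14-fold (1.10 on the log2 scale, SE 0.08, adjusted p = 1.83e-08 in limma). It was read by 1 probe set.

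**Figure D3:**
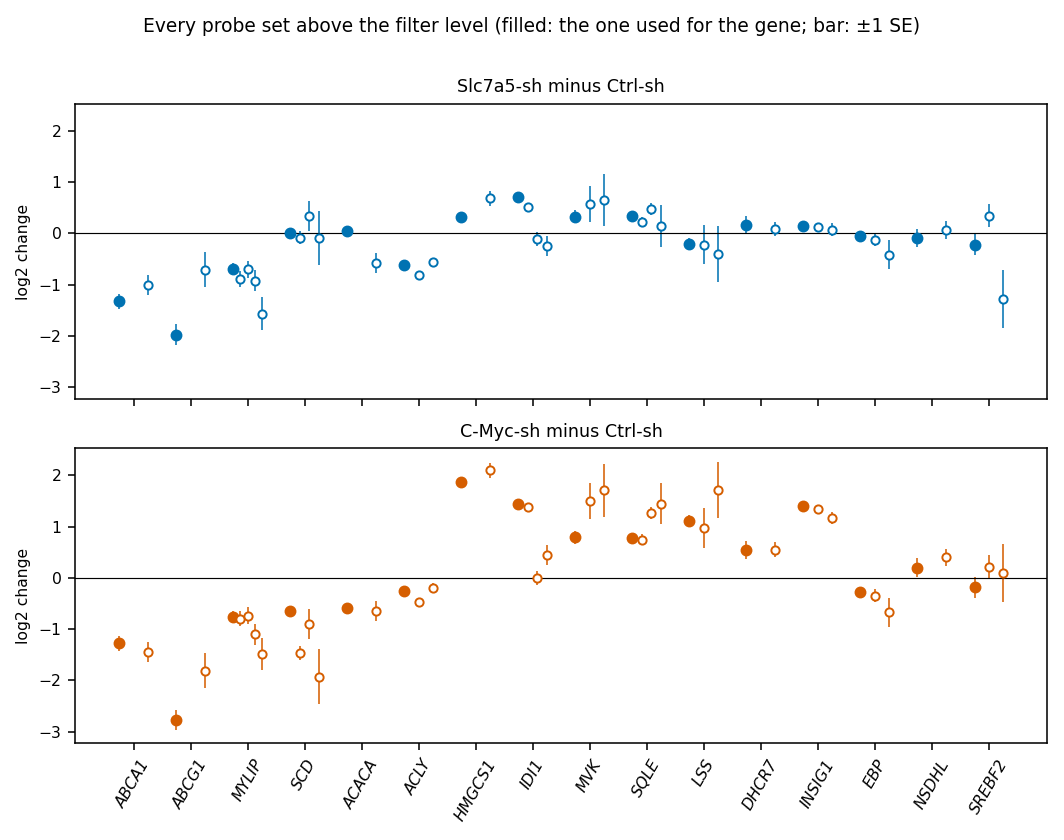
Log2 change (y axis, bars ±1 SE) of every probe set above the level for testing, for 16 genes with more than 1 (x axis), in Slc7a5-sh (upper panel) and C-Myc-sh (lower panel) against Ctrl-sh. Filled points are the probe sets used for the gene. All probe sets of ABCA1, ABCG1 and MYLIP lie below 0. Those of IDI1, SREBF2, ACACA, SCD and NSDHL lie on both sides of 0 in the upper panel, and those of SREBF2 in the lower panel.

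Fatty acid synthesis separated from sterol synthesis in C-Myc-sh, where 4 of 5 tested genes were lower, with a median log2 change of -0.58 and 26.2% of all genes lower. In Slc7a5-sh 1 of 5 was lower, where 11.0% of all genes were. The median there of -0.33 rested on 1 array and was -0.018 without Slc7a5-sh replicate 3. FASN, the synthase that builds palmitate, had log2 signals of 9.47, 9.28 and 9.48 in Ctrl-sh, of 9.29, 9.06 and 8.89 with Slc7a5-sh and of 7.93, 8.26 and 8.11 with C-Myc-sh. The C-Myc-sh arrays lay well below the other groups. FASN fell to 40.4% of Ctrl-sh in C-Myc-sh (-1.31 on the log2 scale, SE 0.15, adjusted p = 2.76e-06 in limma), and its change in Slc7a5-sh was -0.33 (SE 0.15, limma adjusted p = 0.123). The knockdowns differed (a difference of -0.98 on the log2 scale, SE 0.15, adjusted p = 6.52e-05 in limma), though not when its probe sets were averaged (-0.56, limma adjusted p = 0.258).

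SCD, the desaturase that makes oleate from stearate, had log2 signals of 11.95, 11.94 and 11.97 in Ctrl-sh, of 12.09, 11.88 and 11.90 with Slc7a5-sh and of 11.27, 11.27 and 11.40 with C-Myc-sh. Ctrl-sh and Slc7a5-sh overlapped and C-Myc-sh lay below both. SCD fell to 64.2% of Ctrl-sh in C-Myc-sh (-0.64 on the log2 scale, SE 0.07, adjusted p = 1.53e-06 in limma), and 3 further probe sets gave larger falls, of -1.93 to -0.90. In Slc7a5-sh the interval of its change was -0.14 to 0.15 at 95% confidence. ACACA, the carboxylase that makes malonyl-CoA, fell to 66.8% in C-Myc-sh (-0.58 on the log2 scale, SE 0.09, adjusted p = 4.96e-05 in limma), with a change of 0.06 in Slc7a5-sh (95% confidence interval -0.13 to 0.25). A second ACACA probe set gave -0.65 in C-Myc-sh and -0.57 in Slc7a5-sh (limma adjusted p = 0.0117 and 0.0495), so that the probe sets disagreed in Slc7a5-sh.

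ACLY, which releases acetyl-CoA from citrate for sterol and fatty acid synthesis alike, had log2 signals of 13.33, 13.23 and 13.19 in Ctrl-sh, of 12.86, 12.44 and 12.60 with Slc7a5-sh and of 13.08, 12.89 and 12.99 with C-Myc-sh. Here Slc7a5-sh was lowest: ACLY fell to 65.3% of Ctrl-sh in Slc7a5-sh (-0.62 on the log2 scale, SE 0.09, adjusted p = 0.000175 in limma) and to 83.4% in C-Myc-sh (-0.26 on the log2 scale, SE 0.09, adjusted p = 0.0203 in limma). The knockdowns differed (a difference of 0.35 on the log2 scale, SE 0.09, adjusted p = 0.00358 in limma). The C-Myc-sh call was lost without Ctrl-sh replicate 1 (-0.22), without C-Myc-sh replicate 2 (-0.21), with quantile normalization (-0.08) and in eBayes without a trend, and the direct difference did not pass with array medians centred (0.24). FADS2, a desaturase of polyunsaturated fatty acids, had log2 signals of 7.29, 6.80 and 7.22 in Ctrl-sh, of 7.35, 7.61 and 4.25 with Slc7a5-sh and of 7.33, 7.73 and 7.37 with C-Myc-sh. The changes of -0.70 and 0.37 (SE 0.64) did not pass, and that in Slc7a5-sh turned to 0.38 without replicate 3, the low array.

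**Figure D4:**
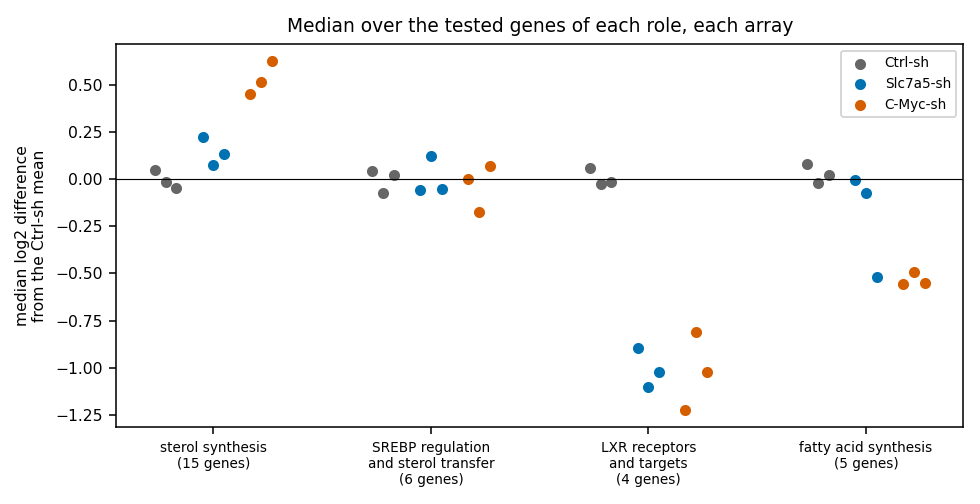
Median over the tested genes of each role (x axis) of the log2 difference from the Ctrl-sh mean (y axis) on each array, a description with no test. Sterol synthesis lies at 0.08 to 0.22 in Slc7a5-sh and 0.45 to 0.62 in C-Myc-sh. LXR receptors and targets lie at -1.10 to -0.89 and -1.22 to -0.81.

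Promoter sequence was set beside these changes. RefSeq windows of 300 bases (250 before and 50 after an annotated start, build GRCh38.p14) were found for 30 of the 35 genes, 43 windows in all. They were searched on both strands for the CCAAT box (CCAAT), at which NF-Y binds beside SREBP in many sterol genes, the E-box of MYC and SREBP (CACGTG), an SREBP element (TCACNCCAC) and an LXR element, the direct repeat of a hexamer spaced by 4 bases. The CCAAT box was in 13 of 15 sterol synthesis genes, or 86.7%, where 43.9% of tested genes and 39.7% of all genes with a window held it. It was also in 2 of 4 LXR receptors and targets, 3 of 6 genes of SREBP regulation and sterol transfer and 4 of 5 fatty acid synthesis genes. The E-box was in 5 of 30, namely LSS, SC5D, INSIG1, SCAP and ABCA1, or 16.7%, where 12.8% of tested genes held it. The SREBP element was in SREBF2 alone of the 30 (1.47% of tested genes), 133 bases before its start, and the LXR element in none of them (0.0108% of tested genes). A looser SREBP element (CACNCCAC), searched after the windows had been seen, was in 7 of 30, namely IDI1, SC5D, SREBF2, INSIG1, ABCA1, SCD and ACACA, or 23.3%, where 7.59% of tested genes held it. ABCG1, FASN, ACAT2, SQLE and FDFT1 had no window and were not searched. A gene with several starts has several windows and so more room for a match, and a match is a description of the letters.

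The 200 bases before the start are shown for the genes called in both knockdowns that held a match, since these are the promoters whose genes moved in both. For a gene with several windows, the one with the most marked matches in these bases is shown, so the number of matches shown was selected for. Capitals mark CCAAT or its reverse complement, the E-box and, in ABCA1, a looser LXR element; matches that overlap are joined, and the looser SREBP element is not marked. The looser element, which leaves 1 base of each hexamer free, was searched after the windows had been seen, matched in ABCA1 alone of the 30 genes, on the strand opposite to the gene from 69 bases before the start, and was in 0.0759% of tested genes. First come 4 sterol synthesis genes that rose in both knockdowns, each with a CCAAT box, of which MSMO1 holds 4.
MSMO1, chr4:165327469-165327668, plus strand: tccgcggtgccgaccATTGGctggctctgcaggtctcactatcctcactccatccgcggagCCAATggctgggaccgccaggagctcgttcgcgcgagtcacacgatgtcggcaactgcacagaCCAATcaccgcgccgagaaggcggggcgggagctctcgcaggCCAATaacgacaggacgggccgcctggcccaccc
HMGCS1, chr5:43313413-43313612, minus strand: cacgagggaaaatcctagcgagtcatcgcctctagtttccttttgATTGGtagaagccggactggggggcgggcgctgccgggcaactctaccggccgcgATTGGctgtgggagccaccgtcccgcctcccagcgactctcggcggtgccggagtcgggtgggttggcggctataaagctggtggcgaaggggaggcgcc
IDI1, chr10:1048887-1049086, minus strand: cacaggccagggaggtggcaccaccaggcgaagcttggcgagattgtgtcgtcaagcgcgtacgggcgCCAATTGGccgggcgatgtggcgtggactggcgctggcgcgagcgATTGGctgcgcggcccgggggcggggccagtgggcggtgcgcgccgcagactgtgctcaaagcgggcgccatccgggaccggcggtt
SC5D, chr11:121292571-121292770, plus strand: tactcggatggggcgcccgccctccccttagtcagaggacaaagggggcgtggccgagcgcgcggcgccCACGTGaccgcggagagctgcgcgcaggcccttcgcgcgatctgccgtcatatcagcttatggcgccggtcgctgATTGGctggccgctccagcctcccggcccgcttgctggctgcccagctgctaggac

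Next come the genes with a window that fell in both knockdowns. ABCA1 holds an E-box and no CCAAT box in its window, while MYLIP, TM7SF2 and ACLY do.
ABCA1, chr9:104928156-104928355, minus strand: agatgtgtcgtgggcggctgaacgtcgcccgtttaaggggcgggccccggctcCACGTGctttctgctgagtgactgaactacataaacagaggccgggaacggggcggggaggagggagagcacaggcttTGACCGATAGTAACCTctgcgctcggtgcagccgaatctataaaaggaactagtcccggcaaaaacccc
MYLIP, chr6:16128886-16129085, plus strand: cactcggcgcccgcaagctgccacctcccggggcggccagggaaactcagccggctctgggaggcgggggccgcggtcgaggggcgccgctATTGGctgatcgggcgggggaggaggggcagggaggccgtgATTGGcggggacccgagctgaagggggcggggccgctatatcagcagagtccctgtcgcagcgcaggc
TM7SF2, chr11:65111672-65111871, plus strand: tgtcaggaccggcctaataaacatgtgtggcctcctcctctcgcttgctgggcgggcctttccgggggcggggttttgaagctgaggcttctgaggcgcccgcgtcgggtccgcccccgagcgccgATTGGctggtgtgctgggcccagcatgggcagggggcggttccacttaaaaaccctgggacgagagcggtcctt
ACLY, chr17:41918952-41919151, minus strand: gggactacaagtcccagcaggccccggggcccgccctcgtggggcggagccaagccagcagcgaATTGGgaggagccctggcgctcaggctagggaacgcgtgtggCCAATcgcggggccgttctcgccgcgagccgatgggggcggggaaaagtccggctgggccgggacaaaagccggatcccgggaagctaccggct

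STARD4, which moved in opposite directions, holds 2 CCAAT boxes.
STARD4, chr5:111512536-111512735, minus strand: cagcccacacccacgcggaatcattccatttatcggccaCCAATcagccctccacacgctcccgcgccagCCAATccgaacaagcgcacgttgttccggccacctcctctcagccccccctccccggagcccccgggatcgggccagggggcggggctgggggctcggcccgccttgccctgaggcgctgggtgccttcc

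The wider lipid pathway was described with 7 further lists, and changes said to rise or fall passed the limma test over all genes. The counts stand against 25.3% of all genes called in Slc7a5-sh, 14.3% higher and 11.0% lower, and 54.9% in C-Myc-sh, 28.7% higher and 26.2% lower. Of 8 tested genes of SREBP processing and sterol sensing, 3 were higher in Slc7a5-sh and the others not called, and 3 were higher and 1 lower in C-Myc-sh, or 37.5% called in Slc7a5-sh and 4 of 8 with C-Myc-sh. MBTPS1, the protease that makes the first cut of SREBP, rose by 0.31 and 0.68 on the log2 scale in Slc7a5-sh and C-Myc-sh, and RNF139, a ubiquitin ligase of the endoplasmic reticulum that binds INSIG1, by 0.43 and 0.55. ERLIN2, which takes part in sterol-regulated degradation there, rose by 0.32 and 0.31. TMEM97, an SREBP target that binds sterols, fell by 0.80 in C-Myc-sh. Isoprenoid and late sterol steps outside the 35 genes had 1 of 10 higher and 2 lower in Slc7a5-sh, and 2 higher and 4 lower in C-Myc-sh, or 30.0% called in Slc7a5-sh and 6 of 10 with C-Myc-sh. GGPS1, which makes geranylgeranyl diphosphate, rose by 0.72 in C-Myc-sh, while PDSS1 of coenzyme Q synthesis fell by 1.05 and the mitochondrial thiolase ACAT1 by 1.15.

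Of 15 tested genes of sterol transport, esterification and oxysterols, 1 was higher and 2 lower in Slc7a5-sh, and 8 higher and 6 lower in C-Myc-sh. The share called was 20.0% in Slc7a5-sh, below that of all genes, and 93.3% in C-Myc-sh. The genes that release cholesterol from lysosomes were among those that rose in C-Myc-sh, with LIPA, the lysosomal acid lipase, at a log2 change of 1.02 and NPC1, a lysosomal cholesterol transporter, at 0.86. SCARB1, a lipoprotein receptor that takes up cholesteryl esters, fell by 1.56 and LRP8, a receptor for apolipoprotein E, by 1.29. OSBPL2, a sterol transfer protein, rose by 0.50 in Slc7a5-sh and 0.89 with C-Myc-sh. SOAT1, which esterifies cholesterol for storage, fell by 0.48 in Slc7a5-sh and 0.21 with C-Myc-sh.

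Of 5 tested genes listed as LXR partners and further LXR targets, 2 were higher in Slc7a5-sh and 1 with C-Myc-sh, or 40.0% and 20.0% called, and the others were not called. LPCAT3, a phospholipid acyltransferase that LXR induces in liver, rose by 0.89 in Slc7a5-sh (limma adjusted p = 0.00516) and had a change of 0.32 in C-Myc-sh (limma adjusted p = 0.198). RXRB, a partner receptor of LXR, rose by 0.54 and 0.90.

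Elongation, desaturation and supply of NADPH or acetyl-CoA had 3 of 14 higher and 3 lower in Slc7a5-sh, and 2 higher and 5 lower in C-Myc-sh, or 42.9% called in Slc7a5-sh and 7 of 14 with C-Myc-sh. HSD17B12, a reductase of fatty acid elongation, fell by 0.18 and 0.59 and MECR of mitochondrial fatty acid synthesis by 0.44 and 1.03. FADS3, a relative of FADS2, fell by 0.996 in C-Myc-sh. HACD3, a dehydratase of elongation, rose by 0.44 and MID1IP1, which activates acetyl-CoA carboxylase, by 0.59 in Slc7a5-sh. Fatty acid activation and glycerolipid synthesis had 4 of 16 higher and 1 lower in Slc7a5-sh, and 4 higher and 3 lower in C-Myc-sh, or 31.2% and 43.8% called. LPIN1, a phosphatidate phosphatase, rose by 1.42 and 0.88 and GPAM, which starts glycerolipid synthesis, by 0.71 and 0.48. Fatty acid oxidation had 2 of 21 higher and 5 lower in Slc7a5-sh, and 8 higher and 6 lower in C-Myc-sh, or 33.3% and 66.7% called. HADH and ACADM, which act on short and medium chains, fell by 0.50 and 0.49 in Slc7a5-sh, and ACADVL, for very long chains, fell by 0.78 there and rose by 0.47 in C-Myc-sh. PPARA, a receptor that switches on oxidation genes, rose by 0.58 and 1.39.

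**Figure D5:**
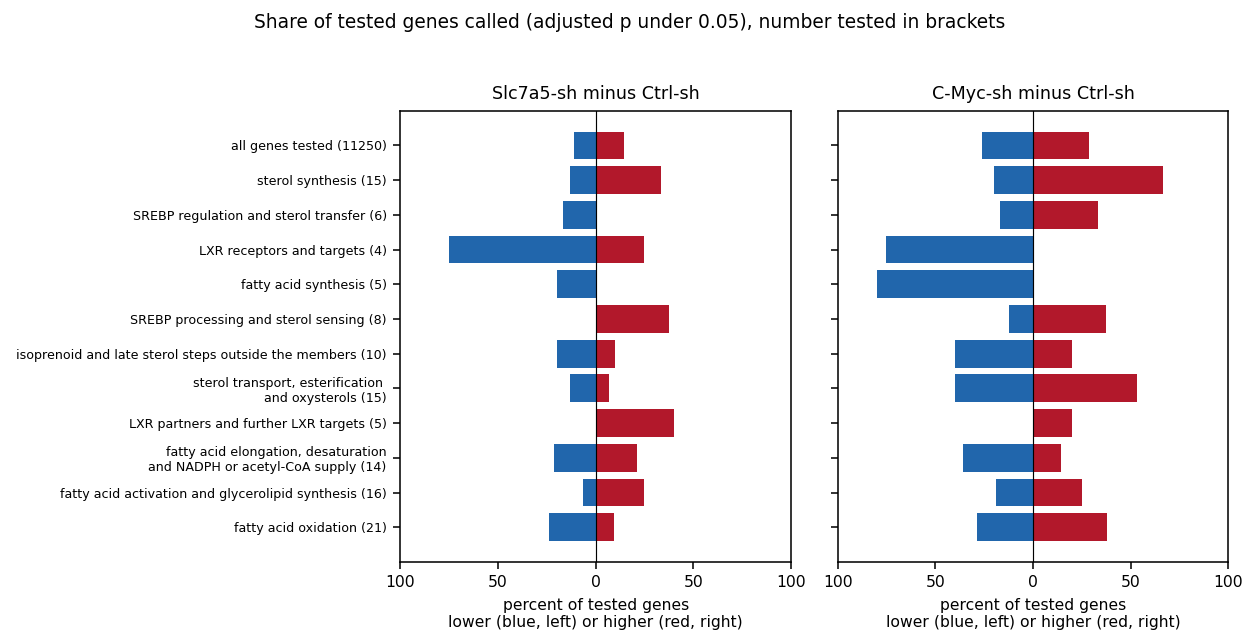
Percent of tested genes called lower (blue, left) and higher (red, right) for all genes, the 4 roles and the 7 further lists (y axis, number tested in brackets), in Slc7a5-sh (left panel) and C-Myc-sh (right panel) against Ctrl-sh. LXR receptors and targets are mostly called lower in both panels, and sterol synthesis is mostly called higher in C-Myc-sh, where 26.2% of all genes were called lower and 28.7% higher.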

How the data were processed

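Total RNA of 9 Daudi samples was amplified with a 3' labelling kit into biotinylated cRNA for oligonucleotide arrays, per the labels' protocols. The authors deposited log2 signals of 54613 probe sets; the submitters' processing notes name MAS5, without a version. The mean of the linear signals with 2% trimmed at each end was 497 on every array, so arrays had been scaled to one target, and no further normalization was applied. The number of arrays limits the precision. Groups were read from the titles. The platform annotation gave 41091 probe sets 1 gene symbol; Entrez IDs changed 0 of these symbols. The probe set with the highest mean stood for a gene, tested where that mean reached the median of all probe sets (5.77). Tests used limma 3.58.1 in R 4.3.3: lmFit with 3 group means over 9 arrays, eBayes with trend, 3 contrasts, two-sided, Benjamini-Hochberg adjustment over 11250 genes, called under 0.05. The fit was tested on simulated data. Probe sets were also fitted singly (22166 above the level). Of the further lists, the text names up to 3 called genes with the smallest p in each direction. Members, lists and rules were chosen with earlier results of these data known. Alternatives changed the normalization, filter, floor, variance model, arrays and probe sets.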

Additional observations from a re-analysis of the deposited data

Results flagged for a closer look

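STARD4 was flagged because its changes in the knockdowns went in opposite directions and the test of the difference passed. It was lower in Slc7a5-sh (log2 change -0.28) and higher in C-Myc-sh (1.10), and all 3 arrays of each group lay on that side of the Ctrl-sh arrays. The direct difference between C-Myc-sh and Slc7a5-sh was 1.37 (SE 0.08, limma adjusted p = 2.73e-09). The Slc7a5-sh call of STARD4 was lost without Ctrl-sh replicate 1 (-0.24) or Slc7a5-sh replicate 3 (-0.23). Among the tested lipid genes, STARD4 alone was called in opposite directions. Of all 11250 tested genes, 117 were called lower in Slc7a5-sh and higher in C-Myc-sh, and 168 the reverse. Opposite calls were thus not particular to STARD4. Groups of 3 arrays are too small to test for single outlying arrays.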

How the results depend on the processing

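Of 1659 values of single genes recomputed under the alternatives, 1570 kept their direction and their side of the threshold, 40 lost and 14 gained a call, and 35 changed sign. Of those 35, 33 passed neither before nor after, and 2 had been called: IDI1 in Slc7a5-sh was -0.25 without _s_at and _x_at probe sets, and EBP in C-Myc-sh against Slc7a5-sh was 0.35 when a gene's probe sets were averaged. With that average, 1581 of 10176 genes, 795 of them higher, were called in Slc7a5-sh in place of 2843. Of 29 lipid genes, 3 were called higher there, and 5 were lower in C-Myc-sh than in Slc7a5-sh, where 2027 of all genes were. Without _s_at and _x_at probe sets, 899 of 8817 genes were lower in Slc7a5-sh, and 2501 higher and 2067 lower in C-Myc-sh. Between the knockdowns 1906 were lower in C-Myc-sh. Of the 19 lipid genes left to test, 4 were lower in Slc7a5-sh, and 7 higher and 5 lower in C-Myc-sh. Of these 19, 3 were lower in C-Myc-sh than in Slc7a5-sh. With all 30 tested lipid genes and single arrays left out, members lower in C-Myc-sh than in Slc7a5-sh ran from 5 to 8. Members higher in Slc7a5-sh ran from 5 to 6 and lower from 5 to 7, and in C-Myc-sh from 11 to 12 and 10 to 11. Among uncalled values, averaging probe sets turned MVK (-0.23), ACACA (-0.26) and FADS2 (0.018) in Slc7a5-sh, SREBF2 in C-Myc-sh (0.039), and ABCA1 (-0.46) and MYLIP (0.27; 0.082 without _s_at and _x_at probe sets) between the knockdowns. Centring turned SCD in Slc7a5-sh (-0.0093). Quantile normalization and centring turned INSIG2 in C-Myc-sh (-0.051 and -0.088), and SREBF2 (-0.091 and -0.084) and ABCA1 (-0.058 and -0.070) between the knockdowns, and the former turned FDPS in C-Myc-sh (0.087). Leaving out single arrays crossed 0 in Slc7a5-sh for NSDHL (-0.22 to 0.026), HSD17B7 (-0.0061 to 0.11), EBP (-0.088 to 0.028), DHCR7 (-0.0092 to 0.37), SREBF2 (-0.37 to 0.032), SCD (-0.064 to 0.041), ACACA (-0.018 to 0.10) and FADS2 (-1.30 to 0.38), and in C-Myc-sh for INSIG2 (-0.0064 to 0.12). Between the knockdowns it did so for SREBF2 (-0.22 to 0.18), ABCA1 (-0.10 to 0.19), MYLIP (-0.18 to 0.025) and FADS2 (-0.0052 to 1.67). Deviations of same-numbered arrays correlated at -0.02 to 0.02, and those of differently numbered arrays at -0.045 to 0.041. No pairing by replicate number was seen. A small shared effect would not show in such correlations, so pairing is not excluded. With the replicate number as a block, 2775, 6147 and 5526 genes were called in Slc7a5-sh, in C-Myc-sh and between them, and the lipid counts were 6 and 7, 12 and 11, and 13 and 8, as without it. Signals near background limit MVD, FADS2 and SREBF1.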
